A study of Mus musculus with 12 samples.

Results

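The Notch receptors Notch1, Notch2 and Notch3, the ligands Jag1, Jag2 and Dll4, and the target genes Hes1, Hey1, Hey2 and Heyl were followed in whole mouse ovaries. They were taken by gene symbol from the deposited expression table, which held all 10 of them among 24255 genes. Ovaries lacking the kinase Mtor in oocytes (CKO, n = 5 libraries), in which a Cre recombinase driven by Gdf9 deletes the gene in the oocyte, were set against Wild type ovaries (WT, n = 7 libraries). Both genotypes were C57BL/6 mice aged 6 months, primed with 5 IU of equine chorionic gonadotropin (also called PMSG), which promotes the growth of follicles, and collected after 46 h. The labels give separate samples but no animals, so the spread behind each p-value is that between libraries and may be technical. Levels were deposited as FPKM, in which the authors divided fragment numbers by transcript length and sequencing depth, so levels of different genes are compared per length.

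The Notch pathway passes signals between touching cells. A Jagged or Delta ligand on the sending cell binds a Notch receptor, proteases release the intracellular part of the receptor, and this part joins the DNA-binding protein RBPJ and Mastermind coactivators to switch on Hes and Hey genes, which encode repressors. In the mouse ovary, oocytes carry Jag1 and granulosa cells, the follicle cells around the oocyte, carry Notch2. In blood vessels, Dll4 and Notch1 act in endothelial cells, and Notch3 acts in the mural cells that wrap them.

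The 12 libraries held 14945 to 16083 genes above 0. Steps between low values put their depth within a 2.18-fold range, so that 1 fragment per kb of transcript added between 0.302 and 0.660 FPKM. For the longest annotated transcript, this corresponds to roughly 14 to 50 fragments of Jag2, 27 to 186 of Hey2 and 153 to 458 of Heyl per library. Mtor RNA of the whole organ was at 5.02 ± 0.499 FPKM in CKO (SD, n = 5) and 4.70 ± 0.702 FPKM in WT (SD, n = 7), which does not check the genotype labels because other ovarian cells keep the gene. CKO replicates 2 and 3 held the oviduct gene Ovgp1 at 252 and 81.9 FPKM, against at most 1.87 FPKM in any other library. The summed oviduct markers of CKO replicate 1 were also high, at 105 FPKM, though its Ovgp1 was at 1.87 FPKM. Its surface epithelium markers, a list that shares Krt7 with the oviduct list, summed to 526 FPKM, against 101.5 to 245 FPKM in the others. Summed red blood cell markers reached 279.5 and 316 FPKM in CKO replicates 1 and 5 and 249 FPKM in WT replicate 1. Summed theca and luteal markers were 7157 FPKM in CKO replicate 1 and 7961 FPKM in the WT library without a replicate number, against 13018 to 20826 FPKM in the others.

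Of the 10 genes, 1 fell, the target gene Hey2, and 0 rose (limma on log2(FPKM + 1), Benjamini-Hochberg adjusted p under 0.05). All 10 could be tested. Over all 13168 genes tested, 7.59% fell and 8.70% rose, so the counts of this set are near the background. At an unadjusted p under 0.05 the counts were likewise 1 lower and 0 higher, against 14.7% lower and 15.5% higher over all genes tested. The median log2 fold change was 0.01 over the 10 genes and -0.01 over all genes tested. Hey2 was also the gene of the set whose genotypes did not overlap, which held for 7.73% of all genes tested, and for 3.65% with lower values in CKO. By the q-value in the authors' deposited table, Hes1 rose and Hey2 and Notch3 fell, beside 8.14% and 6.70% of the genes tested here.

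The start of Hey2 is shown because this gene carries the difference and its proximal sequence holds letters of the site that RBPJ binds. The window spans the gene start and its upstream bases, at chr10:30842734-30843033 on the minus strand (RefSeq, GRCm38.p6). Capitals mark the motif GTGGGAA on either strand.
Hey2: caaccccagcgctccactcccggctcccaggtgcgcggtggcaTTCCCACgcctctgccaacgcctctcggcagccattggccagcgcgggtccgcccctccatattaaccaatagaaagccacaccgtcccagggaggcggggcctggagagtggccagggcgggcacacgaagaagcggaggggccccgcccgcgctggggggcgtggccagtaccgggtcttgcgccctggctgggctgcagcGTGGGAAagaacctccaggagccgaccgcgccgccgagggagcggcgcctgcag
The motif lies at bases 44 to 50 on the opposite strand and at bases 247 to 253 on the same strand, counted from the first base printed, and the matches do not overlap. By the GENCODE M21 gene start at 30842801, the match at bases 44 to 50 is upstream. The match at bases 247 to 253 lies inside the gene. Of 32851 promoter windows of the same length, 6.38% hold it at least once and 0.256% hold 2 or more matches. The windows of Notch1, Notch2, Notch3, Jag1, Jag2 and Dll4 hold no match. No window was available for Hes1, Hey1 and Heyl, so Hey2 is the only target gene searched and is not compared with another target gene. A match describes letters in the window and says nothing of binding in these ovaries.

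**Figure D1:**
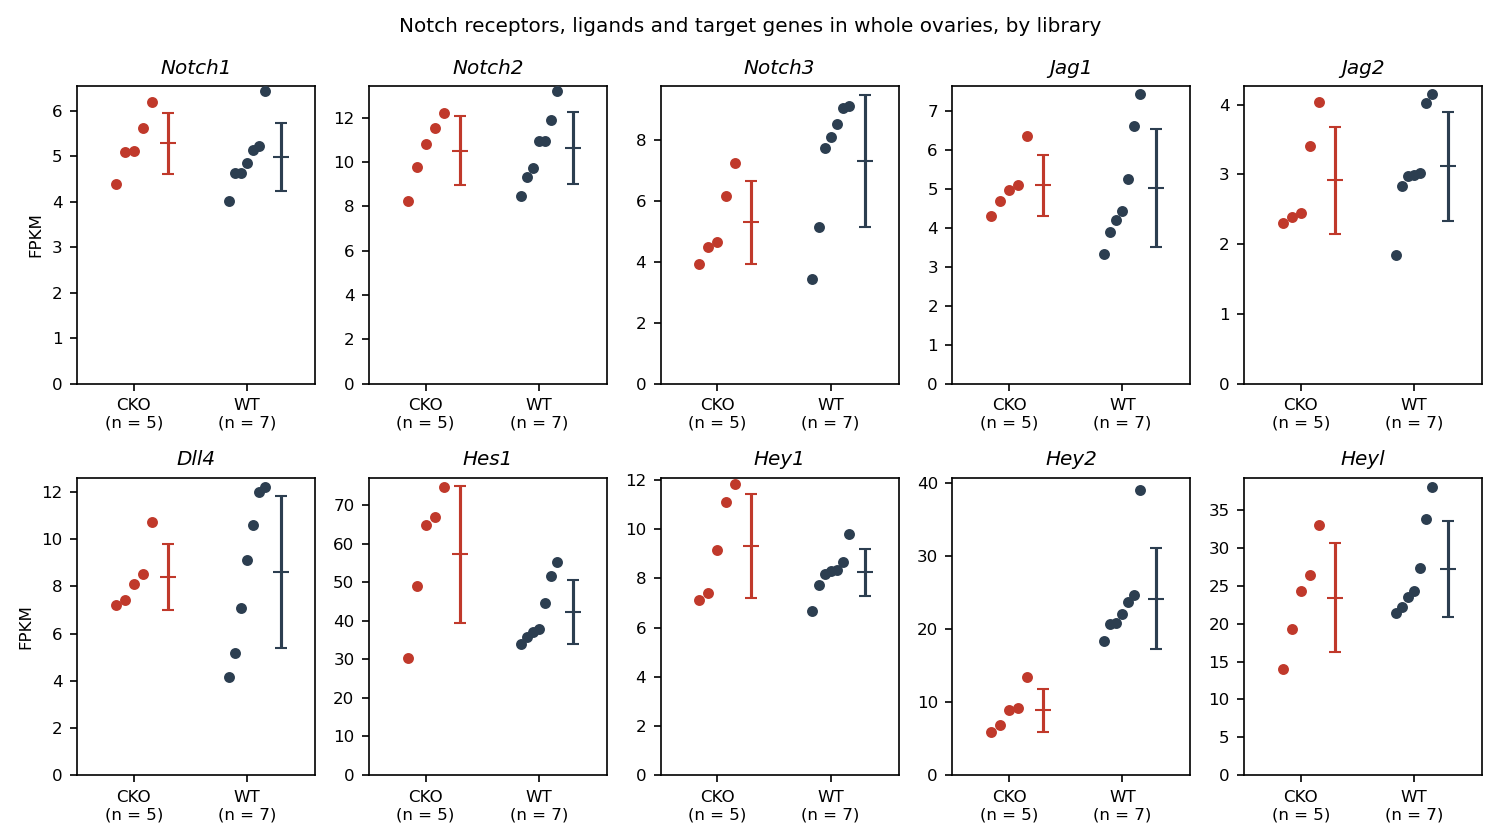
FPKM (vertical axes, starting at 0) of the 10 genes in each CKO library (red, n = 5) and each WT library (dark blue, n = 7), with the mean and SD beside the points. Hey2 is the panel without overlap, with CKO libraries between 5.83 and 13.5 FPKM and WT libraries between 18.3 and 39.1 FPKM.

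Hey2 encodes a basic helix-loop-helix repressor known from heart and artery development (chromosome 10, 30832359 to 30842801, minus strand, mm10). It was at 13.5, 9.14, 5.83, 8.85 and 6.89 FPKM in CKO replicates 1 to 5. In WT the lowest library was at 18.3, the median at 22.0 and the highest at 39.1 FPKM. Every CKO library lay below every WT library, and the highest CKO value came from replicate 1. The means were 8.84 ± 2.93 FPKM in CKO (SD, n = 5) and 24.1 ± 6.89 FPKM in WT (SD, n = 7), a ratio of 0.366. On the scale of log2(FPKM + 1), the log2 fold change was -1.36 (SE 0.20, limma, adjusted p = 0.000597) with a 95% interval of -1.78 to -0.94. In the authors' deposited table, Hey2 had a log2 fold change of -1.45, CKO over WT, and a q-value of 0.0006. This -1.45 is the log2 of the ratio of the same FPKM means.

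Granulosa markers moved with Hey2. Of 14 granulosa genes 13 fell and 0 rose, with a median log2 fold change of -2.48, and their summed level was 1895 to 3250 FPKM in CKO and 4644 to 8171 FPKM in WT. CKO replicate 1, the CKO library with the most Hey2, also had the highest summed level of granulosa markers in CKO, 3250 FPKM. In summed FPKM the other CKO libraries did not keep this order. Replicate 2, next in Hey2, had the lowest sum (1895 FPKM), and replicate 3, lowest in Hey2, the next highest (2100 FPKM). By the mean log2(FPKM + 1) of the same 14 genes, CKO replicates 1 to 5 were at 6.08, 4.81, 4.47, 4.96 and 4.65. On that scale replicate 3 was lowest, as for Hey2, while replicate 4 exceeded replicate 2. All 10 proliferation genes fell as well, and none of the 14 granulosa markers was listed at 0 throughout. Of 11 oocyte markers tested, 5 fell and 0 rose, with a median log2 fold change of -1.27. The part of these lists in the fall of Hey2 was not tested. In RNA of a whole organ, fewer cells of a type and less RNA per cell cannot be told apart.

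Hes1, a repressor of the same protein class and a target in many tissues (chromosome 16, 30064384 to 30067796, plus strand), had the highest mean of the 10 genes per length in both genotypes. It was at 74.8, 64.9, 30.4, 67.1 and 49.1 FPKM in CKO replicates 1 to 5, and between 34.0 and 55.3 FPKM in WT with a median of 37.8. CKO replicates 1, 2 and 4 exceeded all WT libraries, while CKO replicate 3 lay below all of them. The log2 fold change of 0.38 (SE 0.20) did not pass (limma, adjusted p = 0.214), and its interval of -0.04 to 0.81 covers both no difference and a rise. Without CKO replicate 3 it was 0.59 and passed (limma, adjusted p = 0.0237). Over the 21 alternative settings the adjusted p ranged from 0.0237 to 0.489. The authors' deposited table lists Hes1 with a q-value of 0.0462 and a log2 fold change of 0.44.

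Immediate-early genes, such as Fos, are induced quickly by many stimuli and need no new protein for it, and Hes1 is set beside them here. Of 10 such genes 9 were tested, 5 rose and 0 fell, and the summed level of the list was 1392 to 6154 FPKM in CKO and 310 to 1890 FPKM in WT. CKO replicate 3, the lowest library for Hes1, had the lowest sum of the CKO libraries, 1392 FPKM. The highest sum, 6154 FPKM, was in CKO replicate 4, whereas Hes1 was highest in CKO replicate 1. The part of this list in the genotype difference of Hes1 was not tested, and their relation within genotypes is given below.

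Hey1 and Heyl, the other Hey repressors, did not pass. Hey1 (chromosome 3, 8663359 to 8667256, minus strand) was at 9.14, 7.10, 11.8, 7.40 and 11.1 FPKM in CKO replicates 1 to 5. In WT it ranged from 6.66 to 9.80 FPKM around a median of 8.31. CKO replicates 3 and 5 were above all WT libraries and the other 3 were within the WT range. Its log2 fold change was 0.14 (95% interval -0.16 to 0.44). Heyl (chromosome 4, 123233556 to 123249875, plus strand), a target of Notch3 signalling in vascular smooth muscle, was at 24.4, 14.0, 19.2, 26.4 and 33.0 FPKM in the CKO replicates in the same order. WT libraries spanned 21.5 to 38.1 FPKM with a median of 24.4. CKO replicates 2 and 3 lay below all WT libraries. The log2 fold change of Heyl was -0.24 with all libraries, 0.05 when CKO replicates 2 and 3 were left out and -0.45 when replicates 1 and 5 were, and none of these passed (limma, adjusted p = 0.455, 0.891 and 0.200). CKO replicates 2 and 3 are also those with high Ovgp1, whose part in these values was not tested.

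Because Hey2 passed and its relatives did not, the differences between members were tested directly. For 7 pairs chosen by role, the difference of log2(FPKM + 1) between both genes of a pair was taken within each library and compared between genotypes with a two-sided exact permutation test over all assignments of genotype, adjusted over the 7 pairs. Hey2 over Hey1 was -0.09 ± 0.63 in CKO (SD, n = 5) and 1.41 ± 0.41 in WT (SD, n = 7). All 5 CKO libraries lay below all WT libraries, so the exact p of 0.0013 is the smallest that this test can give (adjusted p = 0.00884). The other 6 pairs did not pass, with exact permutation adjusted p between 0.557 and 0.966. Among them, Heyl over Hey1 differed by -0.38 between CKO and WT, Hes1 over Hey1 by 0.24 and Notch2 over Notch3 by 0.36.

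A further 2 ratios were chosen after their values were seen, so they are given as a description without a test. Hey2 over Hes1 was -2.55 ± 0.25 in CKO (SD, n = 5) and -0.80 ± 0.44 in WT (SD, n = 7), with no overlap of the genotypes. Hey2 over Heyl differed by -1.13, and 3 of 5 CKO libraries lay below all WT libraries. Of the summed FPKM of the 4 target genes, Hey2 made up 6.88 to 11.1% in CKO and 17.1 to 33.7% in WT.

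**Figure D2:**
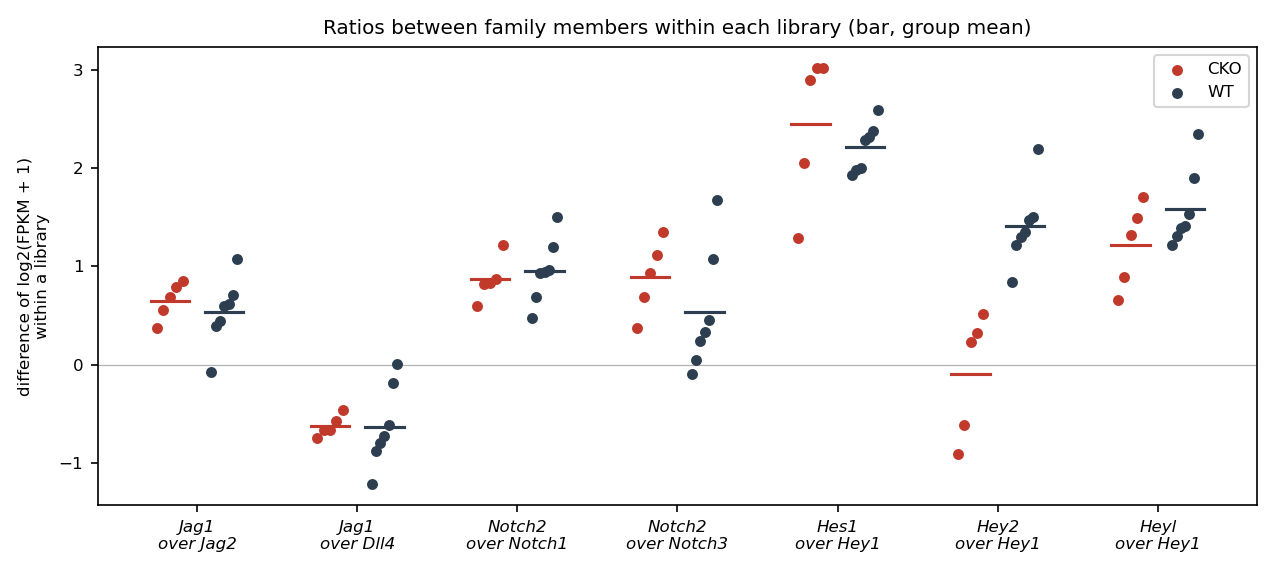
Difference of log2(FPKM + 1) between both genes of 7 pairs (vertical axis) within each CKO library (red, left) and WT library (dark blue, right), with bars at the group means. Hey2 over Hey1 averages -0.09 in CKO and 1.41 in WT without overlap, and the other 6 pairs overlap.

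The receptors did not pass the test. Their intervals bound the differences only on the scale of log2(FPKM + 1), which understates changes of low genes. Notch1 (chromosome 2, 26457903 to 26516663, minus strand) was at 4.40, 5.63, 5.11, 6.21 and 5.09 FPKM in CKO replicates 1 to 5 and between 4.02 and 6.43 FPKM in WT, with a median of 4.86. All CKO values fell inside the WT range, and the 95% interval of the ratio of FPKM + 1, CKO over WT, was 0.870 to 1.27. Notch2 (chromosome 3, 98013527 to 98150361, plus strand), the most abundant receptor per length, was at 11.5, 10.8, 8.26, 12.2 and 9.76 FPKM in CKO. WT libraries lay between 8.45 and 13.2 FPKM with a median of 10.9, and the interval of the same ratio for Notch2 was 0.819 to 1.20.

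Of Notch1, Notch2 and Notch3, Notch3 (chromosome 17, 32120820 to 32166852, minus strand) had the largest spread relative to its mean. Its coefficient of variation was 25.8% in CKO and 29.7% in WT. It was at 3.91, 4.47, 6.14, 7.22 and 4.65 FPKM in CKO replicates 1 to 5. WT libraries had a median of 8.07 FPKM, a lowest value of 3.43 and a highest of 9.11. The lowest values of WT were 3.43 FPKM in the unnumbered library and 5.13 FPKM in replicate 2, and the other 5 WT libraries, from 7.71 FPKM up, exceeded every CKO library. Its log2 fold change of -0.37 (SE 0.22) did not pass (limma, adjusted p = 0.266). Over the 21 alternatives this p lay between 0.0544 and 0.645, while the authors' deposited table gives a q-value of 0.0405. The exons of Notch1, Notch3 and Dll4 overlap annotated RNAs on the opposite strand by 1068 and 414 bases in Notch1, 488 in Notch3 and 214 in Dll4, and those of Notch2 overlap Gm42820 on the same strand by 541 bases. Use of strand in the authors' counting is not stated in the labels, so reads of these partners cannot be told apart.

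The ligands did not pass either. Jag1 (chromosome 2, 137081456 to 137116644, minus strand) was at 5.12, 4.32, 4.97, 6.38 and 4.69 FPKM in CKO replicates 1 to 5 and between 3.34 and 7.45 FPKM in WT, with a median of 4.44. Dll4, the Delta ligand of sprouting vessels (chromosome 2, 119325784 to 119335962, plus strand), was at 8.10, 7.43, 7.23, 10.7 and 8.54 FPKM in CKO. In WT it ranged from 4.18 to 12.2 FPKM around a median of 9.12. The CKO libraries of both ligands lay inside the WT range. Jag2 (chromosome 12, 112907819 to 112929776, minus strand) was the least abundant of the 10 genes, at 2.30 to 4.04 FPKM in CKO and 1.84 to 4.15 FPKM in WT. The 95% intervals of the log2 fold changes were -0.33 to 0.41 for Jag1, -0.45 to 0.30 for Jag2 and -0.45 to 0.52 for Dll4. Changes of these ligands beyond 0.52 on the scale of log2(FPKM + 1) lie outside all 3 intervals. Of 15 oocyte markers 11 were tested and 5 fell, yet transcripts of the whole ovary do not show which cells carry Jag1.

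By mean level, the order in CKO was Hes1, Heyl, Notch2, Hey1, Hey2, Dll4, Notch1, Notch3, Jag1 and Jag2. In WT it was Hes1, Heyl, Hey2, Notch2, Dll4, Hey1, Notch3, Jag1, Notch1 and Jag2. In CKO, Hey2 exceeded Dll4, the next gene in the order, in 2 of 5 libraries, and in WT it exceeded Notch2, the next gene there, in 7 of 7. Notch2, Hey1, Hey2 and Dll4 in CKO, and Notch1, Notch3 and Jag1 in CKO, are therefore neighbours whose order is not separated by the spread. In WT, Notch2 exceeded Dll4, and Jag1 exceeded Notch1, in 4 of 7 libraries each. Hes1 exceeded Heyl in 6 of 7 WT libraries and 5 of 5 CKO libraries. Heyl exceeded Hey2 in 4 of 7 WT libraries and was above its next neighbour in 5 of 5 CKO libraries.

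The other genes of the pathway were read from 6 lists by role with 51 genes, of which 44 were tested. Of these, 5 rose and 2 fell, with a median log2 fold change of -0.11, beside 8.70% and 7.59% of all genes tested. Macrophage markers differed between the same libraries: 10 of 12 rose and 0 fell, with a median log2 fold change of 1.26 and summed levels of 1575 to 4517 FPKM in CKO and 477 to 1523 FPKM in WT. Their part in the pathway calls was not tested. The calls were spread over fringe enzymes, proteases and coactivators, and the lists of ubiquitin ligases, other receptors and ligands, and other Hes genes with Nrarp had 0 calls in limma.

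Fringe enzymes add sugars to Notch receptors and set which ligands they answer to. Of 5 glycosylation genes, Mfng and Lfng rose and 0 fell. Mfng was at 13.7, 11.7, 14.9, 12.9 and 15.1 FPKM in CKO replicates 1 to 5, against 7.34 to 11.6 FPKM in WT with a median of 8.83. The genotypes did not overlap, and the log2 fold change was 0.55 (SE 0.12, limma, adjusted p = 0.00697). The call was lost without CKO replicates 1 and 5 (limma, adjusted p = 0.0529) and with the replicate number as a block (limma, adjusted p = 0.0587), and held in the other 19 of 21 alternatives. Lfng was at 9.30, 7.90, 5.81, 7.10 and 8.39 FPKM in CKO and between 2.79 and 7.21 FPKM in WT with a median of 4.62. Its log2 fold change of 0.63 (SE 0.18, limma, adjusted p = 0.0244) no longer passed without CKO replicate 1 or without CKO replicate 5 (adjusted p = 0.0661 and 0.0585). It also failed with the replicate block (limma, adjusted p = 0.0647), and held in 17 of 21 alternatives. The third fringe gene, Rfng, was at 21.5 FPKM in CKO and 17.6 FPKM in WT on average and did not pass.

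Of 10 proteolysis genes, 2 rose and 1 fell. Psen2, a catalytic subunit of gamma-secretase, which releases the intracellular part of the receptor, averaged 46.5 ± 6.21 FPKM in CKO (SD, n = 5) and 33.7 ± 6.42 FPKM in WT (SD, n = 7), a log2 fold change of 0.47. Aph1c, a further gamma-secretase subunit, averaged 5.85 ± 1.13 FPKM in CKO and 3.59 ± 0.937 FPKM in WT. Aph1b, its neighbour on chromosome 9 and a close relative, did not pass, and reads may be shared between these paralogs, so the Aph1c value is uncertain. Adam17, a metalloprotease that can cut the receptor outside the membrane, averaged 22.6 ± 3.37 FPKM in CKO and 29.0 ± 1.59 FPKM in WT, a log2 fold change of -0.36. With 1 of the 12 libraries left out in turn, Psen2 lost its call 4 times, Aph1c 5 times and Adam17 2 times. For Psen2 this was without CKO replicate 1 or 3 or WT replicate 2 or 4, and for Adam17 without CKO replicate 1 or 4. For Aph1c it was without CKO replicate 1, 2 or 5 or WT replicate 1 or 2. Over all alternatives the call held in 15 of 21 for Psen2, 11 of 20 for Aph1c and 16 of 21 for Adam17. With the replicate block, Aph1c and Adam17 lost their calls (limma, adjusted p = 0.168 and 0.147). Psenen, a small gamma-secretase subunit, was listed at 0 in 4 of 5 CKO and 2 of 7 WT libraries and did not pass. Since 11 of 77 ribosomal protein genes were listed at 0 in every library, a 0 for a short transcript can be a failed estimate.

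Of 11 nuclear genes, Maml2 rose and Crebbp fell. Maml2, a Mastermind coactivator, was at 8.52, 10.9, 8.46, 10.3 and 7.75 FPKM in CKO replicates 1 to 5, against 4.51 to 7.58 FPKM in WT with a median of 6.16. Its genotypes did not overlap (log2 fold change 0.54, SE 0.13, limma, adjusted p = 0.0132), and the call was lost in 1 of 21 alternatives, without CKO replicates 2 and 3 (limma, adjusted p = 0.0619). Crebbp, a histone acetyltransferase used by many pathways, averaged 3.88 ± 0.515 FPKM in CKO and 5.50 ± 0.661 FPKM in WT. Its log2 fold change was -0.41 (limma, adjusted p = 0.0361), and the call held for 3 of the 12 libraries left out in turn and was lost for the other 9. It held without CKO replicate 2 or 4 or WT replicate 2. Rbpj itself averaged 17.0 FPKM in CKO and 20.8 FPKM in WT, with a log2 fold change of -0.27 that did not pass (limma, adjusted p = 0.162). Nrarp, a feedback target of Notch, was at 6.80, 5.20, 10.6, 13.4 and 15.5 FPKM in CKO and between 5.04 and 22.0 FPKM in WT, and did not pass (limma, adjusted p = 0.325).

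**Figure D3:**
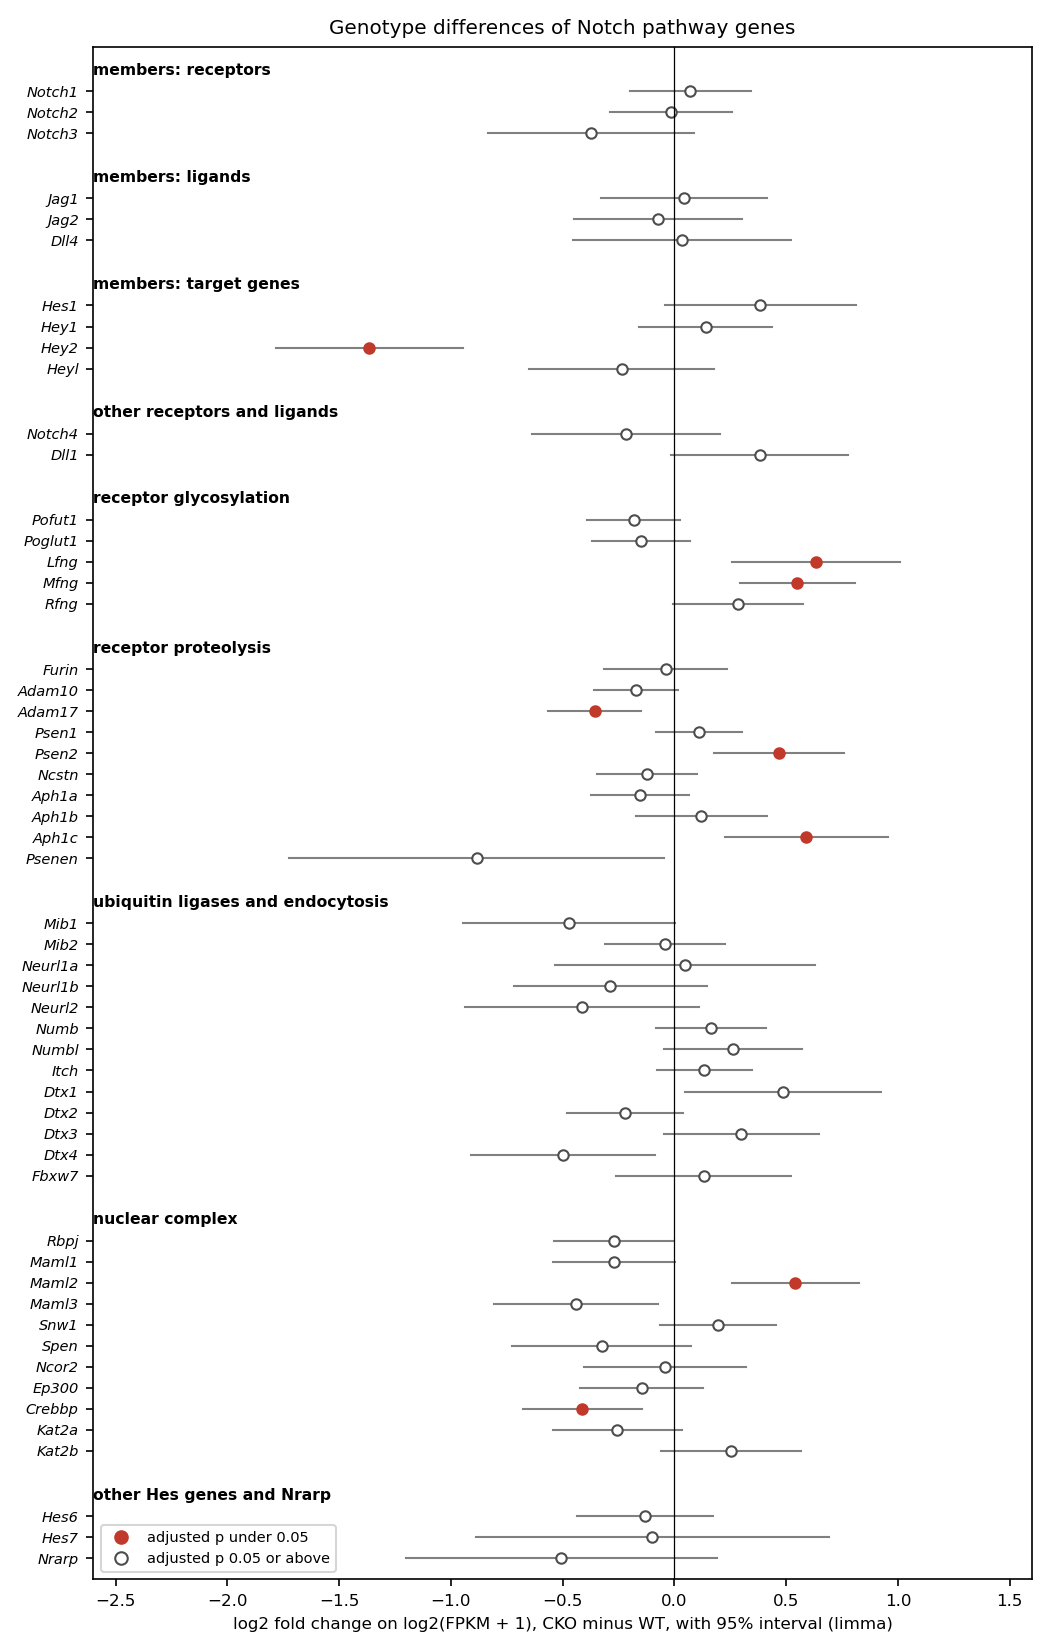
Log2 fold change on log2(FPKM + 1), CKO minus WT, with its 95% interval (horizontal axis) for the 10 genes and for 44 other pathway genes grouped by role. Filled points passed at an adjusted p under 0.05: Hey2 at -1.36 lies farthest from 0, and the other 7 filled points lie between -0.41 and 0.63.

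Within a genotype the 10 genes did not vary as a block. After the genotype mean was taken off each library, Notch3 and Dll4 moved most closely together (r = 0.86 over 12 libraries), while Notch2 ran opposite to Notch3 (r = -0.61) and to Hey1 (r = -0.73). These values describe 12 libraries that share their scaling. The same deviations were set against the mean of 13 marker lists, leaving out the 10 genes themselves. Of 130 such relations, 11 passed by Pearson's r and 4 by Spearman's rho, with exact permutation within genotypes and adjustment over the 130.

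Notch3 and Dll4 followed endothelial markers. For Notch3, r was 0.896 (exact permutation p = 0.000394, adjusted p = 0.024) and rho 0.923 (exact permutation p = 0.000162, adjusted p = 0.0105), and r was 0.871 without the 2 farthest libraries. For Dll4, r was 0.867 (exact permutation p = 0.000546, adjusted p = 0.024) and rho 0.818 (exact permutation p = 0.0015, adjusted p = 0.0488), and r was 0.736 without these 2. With mural cell markers, Notch3 had r = 0.0771 and rho = 0.168 (exact permutation, adjusted p = 0.888 and 0.865). Between genotypes, 2 of 10 endothelial markers rose and 0 fell, with sums of 382 to 527 FPKM in CKO and 258 to 469 FPKM in WT. Notch3 thus had lower means in CKO while the median endothelial marker had a log2 fold change of 0.31. Their relation to the genotype difference was not tested.

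Notch2 followed stroma markers, with r = 0.870 (exact permutation p = 0.000554, adjusted p = 0.024), rho = 0.923 (exact permutation p = 0.000104, adjusted p = 0.0105) and r = 0.785 without the 2 farthest libraries. Of 10 stroma markers 5 rose between genotypes, with sums of 2844 to 3782 FPKM in CKO and 1158 to 1865 FPKM in WT, whereas the Notch2 means were 10.5 and 10.6 FPKM. Heyl followed proliferation genes, with r = 0.840 (exact permutation p = 0.00264, adjusted p = 0.0367), rho = 0.867 (exact permutation p = 0.000936, adjusted p = 0.0406) and r = 0.813 without the 2 farthest libraries. Between genotypes all 10 proliferation genes fell, with a median log2 fold change of -1.21, whereas that of Heyl was -0.24 and did not pass. With mural cell markers Heyl had r = 0.810 and rho = 0.818, which did not pass after adjustment (exact permutation p = 0.00465 and 0.0046, adjusted p = 0.0504 and 0.0877), and r was 0.714 without the 2 farthest libraries.

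Hey2 and granulosa markers had r = 0.814 (exact permutation p = 0.00203, adjusted p = 0.0367) and rho = 0.783 (exact permutation p = 0.00757, adjusted p = 0.0984). This relation rested on CKO replicate 1 and WT replicate 2, without which r was 0.475. Hey2 also had r = 0.671 with oocyte markers and 0.657 with surface epithelium markers. Neither passed (exact permutation, adjusted p = 0.174 and 0.208), and without the 2 farthest libraries of each list r was 0.805 and 0.796. Hes1 and immediate-early genes had r = 0.759 (exact permutation p = 0.00286, adjusted p = 0.0367) and rho = 0.776 (exact permutation p = 0.00483, adjusted p = 0.0877), and r was 0.824 without WT replicate 1 and the unnumbered WT library. The remaining 5 relations that passed by r joined Notch2 with oocyte markers and, inversely, with theca and luteal markers, and Notch3 with theca and luteal and, inversely, with surface epithelium markers, and Dll4 inversely with oviduct markers. None of these 5 passed by rho, whose adjusted p lay between 0.0709 and 0.277 (exact permutation).

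**Figure D4:**
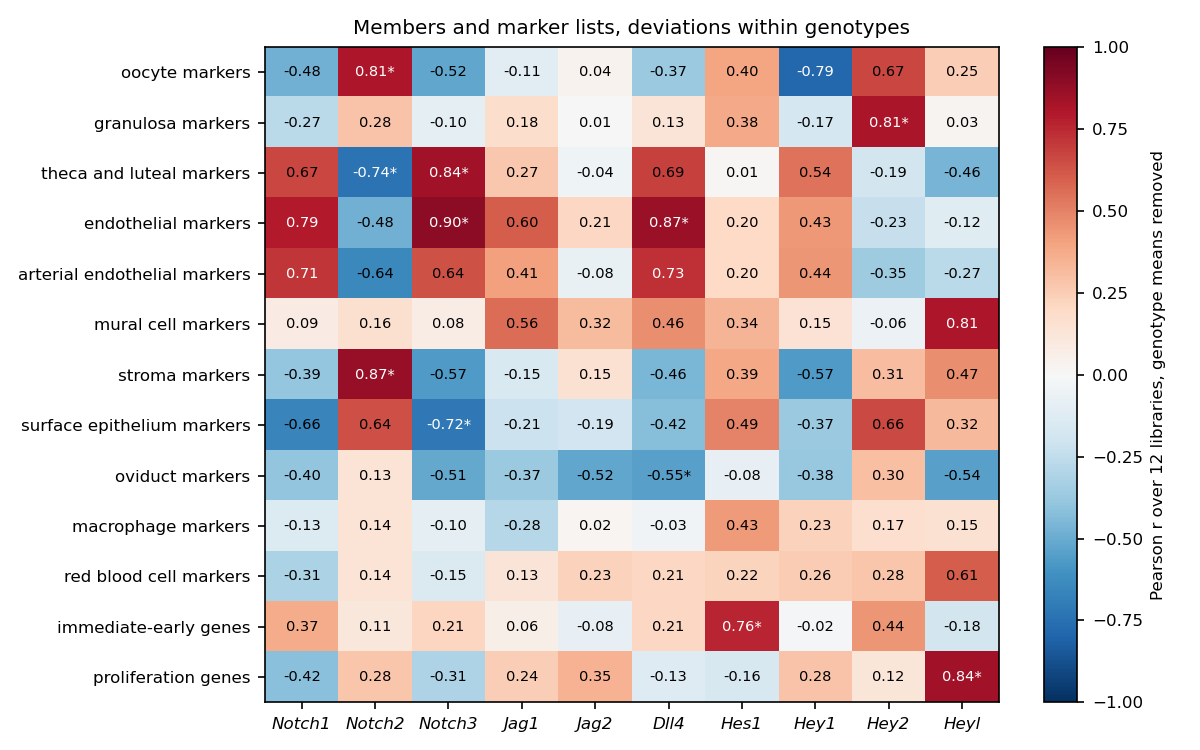
Pearson r over 12 libraries, after removal of the genotype means, between each of the 10 genes (columns) and the mean of 13 marker lists (rows), from -1 in blue to 1 in red. Asterisks mark the 11 of 130 relations that passed by r after adjustment, among them Notch3 and Dll4 with endothelial markers and Notch2 with stroma markers.

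**Figure D5:**
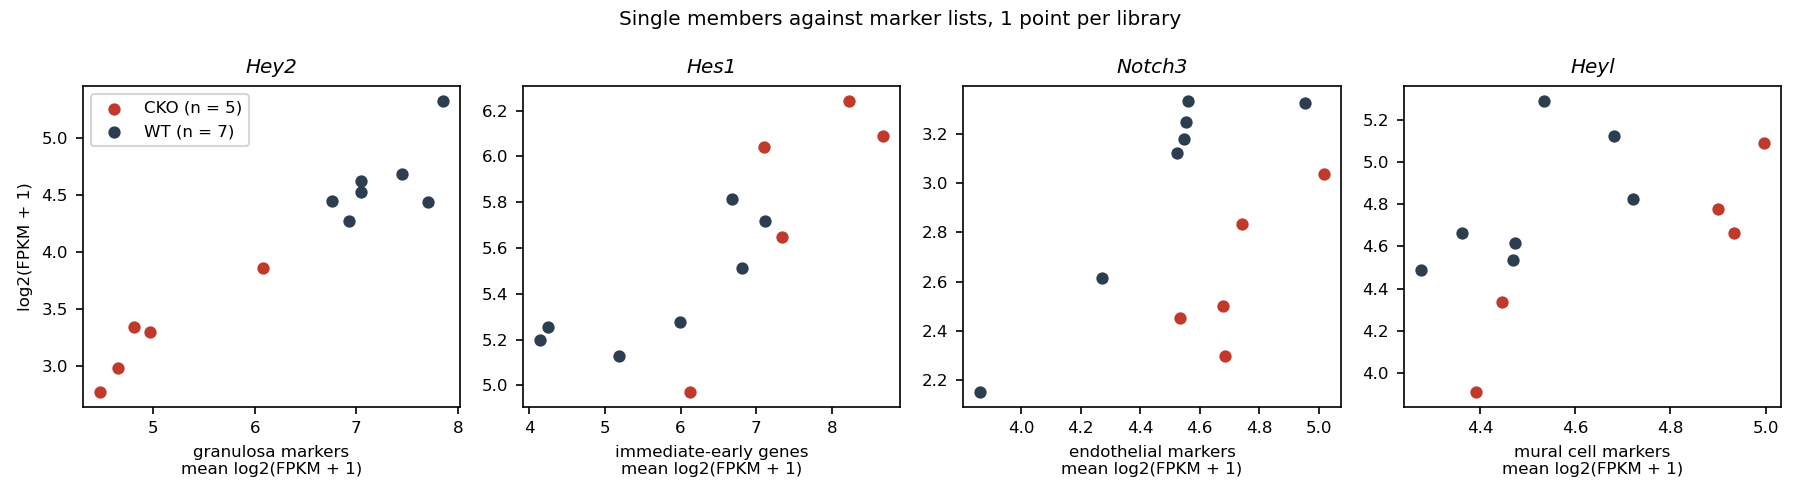
Level of Hey2, Hes1, Notch3 and Heyl (vertical axes, log2(FPKM + 1)) against the mean log2(FPKM + 1) of 1 marker list each (horizontal axes), with 1 point per CKO library (red, n = 5) or WT library (dark blue, n = 7). Hey2 and granulosa markers separate the genotypes on both axes, while the genotypes overlap for Hes1, Notch3 and Heyl.

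By the same within-genotype deviations, the 3 most similar of the 13168 genes were listed for each member, as a description over 12 libraries. As the highest of 13168 correlations, their r values are high by selection and were not tested. For Hey2 they were Unc119b, Sytl4 and Slc16a3 (r between 0.904 and 0.929). Of these, Unc119b and Slc16a3 also fell between genotypes, with log2 fold changes of -0.26 and -0.87 (limma, adjusted p = 0.0367 and 0.0289). For Hes1 they were Casp1, Ormdl2 and A930015D03Rik (r between 0.883 and 0.916), for Hey1 Rheb, Sars and Taldo1 (0.910 to 0.945), and for Heyl Glipr2, Lmnb1 and Polr1c (0.911 to 0.963).

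Among the receptors, Notch1 was most similar to Rnf125, Mecom and Foxc1 (r between 0.909 and 0.915), Notch2 to Tshz3, Dhx57 and Aard (0.917 to 0.928), and Notch3 to Pafah2, Aebp1 and Arhgef15 (0.920 to 0.940). Among the ligands, Jag1 was most similar to Cd248, Pdzk1 and F2r (0.842 to 0.875), Jag2 to Arntl, Specc1 and Snx7 (0.863 to 0.923), and Dll4 to Ifi35, 5330417C22Rik and Tmem55b (0.897 to 0.948). Of the 30 genes named by this rule, Unc119b, Slc16a3, 5330417C22Rik and Lmnb1 passed the genotype test, and each fell. Over all 13168 genes tested, 16.3% passed in either direction and 7.59% fell.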

How the data were processed

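Whole-ovary polyadenylated RNA was sequenced, and per the labels' design text the authors mapped trimmed reads on mm10 (TopHat2 2.0.13). FPKM came from Cufflinks 2.2.1, and the authors' group comparison from Cuffdiff 2.2.1. Its deposited log2 fold changes and q-values (the p-value was not used) are quoted only where named. They run as CKO over WT, to within 0.01 in 99.9% of 12488 genes above 1 FPKM, whereas the column name has the reverse order. The sources used here name neither annotation nor scaling method.

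Groups came from sample titles. For 1 WT column the name matches more than 1 sample, so it entered without a number. Genes with at least 1 FPKM in at least 5 libraries (13168) were tested on log2(FPKM + 1), a scale that understates changes of low genes, with limma 3.58.1 in R 4.3.3 (trended, two-sided, tested on simulated data). Total counts are unknown. Relative depth came from low values (2437 genes with all values below 1 FPKM), whole multiples within 0.1 in 87.3%, and fragment worth from 521 single-transcript genes. Positions are from GENCODE M21.

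The members and lists were chosen with earlier results of these data known. Genes named are the 10 members, pathway genes that passed and the 3 most similar genes per member. Alternatives covered the pseudocount, filters, scaling, array weights, a replicate block, leaving out libraries and, added after seeing the data, the 8 numbered libraries alone and 2 ratios.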

Additional observations from a re-analysis of the deposited data

Results flagged for a closer look

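Within each genotype, 48 groups of values (10 members, 7 pathway genes that passed and 7 ratios, in CKO and in WT) were examined for a library far from the others. Chance flags about 1 in 20 such groups, and 2 were flagged, both in WT replicate 2. Hey2 was at 39.1 FPKM there, against 18.3 to 24.6 FPKM in the other WT libraries. Without this library the log2 fold change of Hey2 was -1.25 (limma, adjusted p = 0.000886). Crebbp was at 4.13 FPKM in WT replicate 2, against 5.36 to 6.13 FPKM in the rest of WT. Leaving it out gave a log2 fold change of -0.47 (limma, adjusted p = 0.018).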

How the results depend on the processing

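The fall of Hey2 passed in all 21 alternatives (log2 fold change -1.52 to -1.24, adjusted p 0.000313 to 0.0129, limma), and the other 9 members did not pass in any of them, except Hes1 without CKO replicate 3. Leaving out 1 library gave 0 to 1 members higher, 2 to 5 pathway genes higher and 0 to 2 lower. Pathway genes called lower numbered 1 with no filter and 1 with a mean of at least 5 FPKM. The replicate numbers share only a number: deviations of 4 same-numbered pairs had r between -0.071 and 0.0901, and 1 of 4 correlated best with its own number. With the replicate block (8 libraries), 756 genes were called higher and 622 lower, and 2 pathway genes higher and 1 lower. The same 8 libraries with genotype alone, added after seeing the data, gave 0 pathway genes lower, 901 genes higher and 707 lower (limma). Without CKO replicates 1 and 5, 671 genes were called higher, with 2 pathway genes higher and 0 lower, and Hey2 over Hey1 differed by -1.53. Without CKO replicates 2 and 3, 2 pathway genes were higher and 1 lower, and Hey2 over Hey1 differed by -1.37. With 3 CKO libraries the smallest adjusted exact permutation p is 0.0583, which both reached. These settings test fewer libraries. The other 6 planned ratios did not pass in any alternative that gave a test; the block gave ratios no p, and the 2 added ratios were run without alternatives. Low members (Jag2, with as few as 14 fragments) are limited by depth.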

Other observations

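Of the 51 other pathway genes, 7 were below the filter on low values: Dlk1, Dlk2, Dll3, Dner, Hes2, Hes3 and Hes5. Hes2 and Hes3 were listed at 0 in all 12 libraries. Dlk1, an imprinted gene for a Delta-like membrane protein, was at 0.789, 1.53, 0.724, 1.51 and 0.682 FPKM in CKO replicates 1 to 5. In WT it ranged from 0 to 0.828 FPKM with a median of 0.216. The unnumbered WT library held the WT maximum, and the other 6 WT libraries lay below every CKO library. With no filter on low values, it had a log2 fold change of 0.65 (SE 0.17, limma, adjusted p = 0.0235). These values correspond to at most about 17 fragments per library, and the gene was singled out after its values were seen.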
